A study of Mus musculus with 16 samples.

Results

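Expression of 7 genes, of 14590 genes with a named and tested probe, was examined across 16 arrays of mouse embryonic stem cells: the Meis genes Meis1, Meis2 and Meis3, the Pbx genes Pbx2 and Pbx3, Pknox1 and the teashirt gene Tshz1. They were found by the gene names in the scanner files, where Meis2 stands under the older symbol Mrg1 and Meis3 under Mrg2. The 7 genes had 14 probes of 41174 on the array, and 12 of the 14 were tested, among 26375 probes that every array of some group showed well above background. The other 2, both on Pbx3 cDNA clones, were not well above background on any of the 16 arrays.

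The cells were E14 mouse embryonic stem cells kept in medium with serum and, as the labels spell it, leukocyte inhibitory factor. All 4 groups carried a stably expressed short hairpin RNA in a lentiviral vector. It was directed against Sirt1, whose protein removes acetyl groups from other proteins at the expense of NAD (sh-SIRT1), or was a control hairpin (sh-Control). For 2 days the cells received 20 nM RA, by the series title an inducer of differentiation and read here as retinoic acid, or ethanol as vehicle. With the Sirt1 hairpin there were 6 arrays after RA and 3 after ethanol, and with the control hairpin 4 arrays after RA and 3 after ethanol, here called sh-SIRT1 RA, sh-SIRT1 vehicle and so on. The sources used here do not say how many clones or infections lie behind each hairpin, so an effect of the hairpin and the history of a line cannot be told apart. The design speaks of 3 pairs of lines with duplicates without naming them, so p-values measure the spread between arrays, which may be partly technical.

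Meis, Pbx and Pknox proteins are homeodomain proteins of the TALE class, named for 3 extra amino acids in a loop of the homeodomain. Pbx proteins bind DNA together with Hox proteins, and Meis or Pknox proteins join them and help to bring Pbx into the nucleus. Retinoic acid acts through nuclear receptors that bind DNA, and Meis genes and Hox genes are known responders to it in embryonic cells. Tshz1 encodes a zinc finger protein related to teashirt of the fruit fly, which works beside Hox proteins in the fly trunk.

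What the array reads of these genes is a 60-base stretch per probe, and 2 of these stretches are shown because they lie in the coding part. In the Pbx2 probe the capitals mark a run of codons typical of homeodomains, which belongs to the third helix of the homeodomain, the helix that contacts DNA. In the Meis1 probe the capitals mark the codons of the only forward reading frame without a stop codon. The Pbx2 probe lies on the plus strand at mm7 chr17:32679347-32679406 and the Meis1 probe on the minus strand at mm7 chr11:18963253-18963312. Homeodomains of related genes are alike, and binding of other Pbx transcripts to the Pbx2 probe was not tested.
Pbx2 probe A_52_P339182: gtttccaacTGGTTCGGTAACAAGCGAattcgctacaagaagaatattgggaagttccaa
Meis1 probe A_52_P670612: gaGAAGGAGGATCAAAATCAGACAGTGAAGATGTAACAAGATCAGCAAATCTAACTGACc

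Promoter sequences from RefSeq (GRCm38.p6) matched 4 of the 7 genes, Meis1, Meis2, Meis3 and Pbx2. The 250 bases before the start of Meis1 and Meis2 are shown because the profiles of these genes over the arrays were each the nearest to the other's among all genes. Neither strand of any of the 4 promoters held AGGTCA, the half-site of retinoid receptors, which 14.0% of 32851 promoter windows of that length held. Likewise none held TGACAG, the core of the Meis and Pknox motif (15.9% of windows), or TGATNNAT, a core of the joint Pbx and Hox motif (7.68%). CCAAT, the box bound by NF-Y, was present in the Meis1 and Meis2 windows and in 33.8% of all windows. It is in capitals below, as written in Meis1, where it begins 54 bases before the start, and as its reverse complement in Meis2, 210 bases before it. The Meis1 window is GRCm38.p6 chr11:19018970-19019219 and the Meis2 window chr2:116064620-116064869, both on the minus strand.
Meis1 promoter: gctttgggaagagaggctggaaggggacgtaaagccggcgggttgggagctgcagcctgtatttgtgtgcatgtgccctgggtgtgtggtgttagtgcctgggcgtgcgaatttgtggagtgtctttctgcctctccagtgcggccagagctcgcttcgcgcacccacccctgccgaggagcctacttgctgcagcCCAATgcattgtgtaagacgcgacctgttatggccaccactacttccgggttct
Meis2 promoter: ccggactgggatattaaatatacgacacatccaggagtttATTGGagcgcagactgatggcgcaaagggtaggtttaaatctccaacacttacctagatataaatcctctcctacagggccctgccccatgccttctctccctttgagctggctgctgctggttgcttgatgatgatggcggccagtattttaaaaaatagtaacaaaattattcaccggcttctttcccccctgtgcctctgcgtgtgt

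Values below are log2 intensities minus the 75th percentile of their array, so 0 is the 75th percentile itself and 1 unit is a doubling. A change was called where limma's adjusted p over all 26375 probes was under 0.05. The Sirt1 probe read 0.92 to 1.59 in sh-SIRT1 RA against 3.28 to 3.48 in sh-Control RA, and 1.83 to 1.89 in sh-SIRT1 vehicle against 3.53 to 3.85 in sh-Control vehicle. Ddx3y, a Y-linked gene, was not well above background on sh-Control RA arrays 2, 3 and 4, while it read 0.23 on sh-Control RA array 1 and 0.33 to 1.60 on the other 12 arrays. Hence 3 of the 4 sh-Control RA arrays stand apart from all others. Results of the 7 genes that rest on this group are also given with array 1 alone where that changes a call or moves a value by much. Calls of other named genes and of gene lists are given with all 4 arrays only. sh-Control RA arrays 3 and 4 were also the most alike pair within a group, with an SD of their log2 difference of 0.213, against 0.264 to 0.711 for the other pairs. All 8 pluripotency markers, among them Pou5f1 and Nanog, were well above background on every array. These are bulk RNA samples, in which fewer cells of a type and less RNA per cell cannot be told apart.

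Under RA, sh-SIRT1 cells had higher levels of Meis1, Meis2, Meis3 and Tshz1 than sh-Control cells, by 0.87 to 2.67 log2 units on the leading probe (the brightest probe of a gene). Pbx2, Pbx3 and Pknox1 did not pass the test. In all, 8 of the 12 probes were called higher and the other 4 were not called, against 8.36% of all probes called higher and 12.5% called lower. Among the 8, the coding Meis1 probe shown above passed the filter only through sh-SIRT1 RA, the group where it was highest. Its call is therefore no separate support. The 8 called probes had no overlap between the groups, which held for 15.7% of all probes. The median over the 7 leading probes was 0.87, and over all probes -0.04.

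Meis2 encodes a partner of Pbx and Hox proteins that is widely expressed in the embryo. Its leading probe (A_52_P277641, mm7 chr2:115604178-115604237) ranged in sh-SIRT1 RA from 2.93 to 3.40 with a median of 3.17, against 1.28, 2.44, -0.09 and -0.24 in sh-Control RA. The 6 sh-SIRT1 arrays lay together above all 4 sh-Control arrays, of which array 2 was highest and arrays 3 and 4 lowest. The difference was 2.31 ± 0.45 (SE; adjusted p = 0.00285 in limma), a 4.95-fold higher level. The second probe, next to it on the chromosome (A_51_P422429), gave 2.61 ± 0.54, and the third (A_52_P290211, farther away on a cDNA clone) gave 2.52 ± 0.34. On sh-Control RA array 3 the second probe read -1.50, where the leading probe read -0.09. On sh-Control RA arrays 1, 2 and 4 the second probe read 1.02, 2.15 and -0.45, nearer to the leading probe. All 3 probes placed every sh-SIRT1 array above every sh-Control array.

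Meis1 encodes a cofactor of Hox proteins in blood stem cells and limb. Its leading probe (A_52_P26195, mm7 chr11:18833212-18833271) ranged from -1.90 to -1.08 in sh-SIRT1 RA with a median of -1.38, and read -3.34, -2.33, -4.50 and -4.63 in sh-Control RA. The groups did not overlap, and again array 2 was the highest and arrays 3 and 4 were the lowest of the sh-Control group. sh-SIRT1 was higher by 2.22 ± 0.44 (adjusted p = 0.00308 in limma), or 4.66-fold. The coding probe shown above gave 1.93 ± 0.31, with a range of -3.55 to -2.91 in sh-SIRT1 RA and values of -4.88, -4.15, -5.26 and -6.08 in sh-Control RA, the last not well above background. The normexp background correction was run with an added offset of 50, which shrinks log2 differences of dim probes. With this correction the coding probe gave 0.71 and was not called (adjusted p = 0.262 in limma).

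Tshz1 had the largest difference of the 7 leading probes. Its first probe (A_51_P394833, mm7 chr18:84361754-84361813) ranged from 1.78 to 2.60 in sh-SIRT1 RA, median 2.12, against -0.35, 0.86, -1.12 and -1.43 in sh-Control RA. Its second probe (A_52_P276302, mm7 chr18:84362837-84362896) ranged from -1.11 to -0.54, median -0.82, against -3.40, -2.13, -3.83 and -3.98. On both probes sh-Control RA array 2 came nearest to the sh-SIRT1 arrays without reaching them. The differences of 2.67 ± 0.37 on the first probe (adjusted p = 0.000335 in limma) and 2.52 ± 0.37 on the second amount to 6.36-fold and 5.73-fold.

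Meis3 encodes a relative of Meis1 with a known role in hindbrain patterning of the frog. On its single probe (A_52_P575691, mm7 chr7:13947079-13947867, a span wider than the probe's 60 bases) sh-SIRT1 RA ranged from -2.19 to -1.61 with a median of -1.83, and sh-Control RA read -2.22, -2.30, -3.11 and -3.24. The groups did not overlap, but sh-Control arrays 1 and 2 lay just under the lowest sh-SIRT1 array. The difference was 0.87 ± 0.20 (adjusted p = 0.00739 in limma). It was no longer called with the replicate number as a block within treatment (0.81, adjusted p = 0.054), with the normexp background correction (0.52, adjusted p = 0.144), or with sh-Control RA array 1 as the only sh-Control RA array (0.37, adjusted p = 0.311).

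Pbx2 and Pbx3 encode the Hox-binding partners themselves, and Pknox1 a TALE protein that binds Pbx in place of Meis. The leading Pbx2 probe (A_51_P246471, mm7 chr17:32680956-32681015) ranged from 2.67 to 2.98 in sh-SIRT1 RA, median 2.87, and read 2.49, 3.06, 2.66 and 2.62 in sh-Control RA. Pbx3 (A_51_P416974, mm7 chr2:34179274-34179333) ranged from -0.49 to -0.26, median -0.39, against -0.60, -0.21, -0.50 and -0.53. Pknox1 (A_52_P431894, mm7 chr17:29798244-29798303) ranged from -0.49 to -0.30, median -0.39, against -0.25, -0.48, -0.20 and -0.17. The groups overlapped for all 3 genes, since sh-Control RA array 2 lay within or beyond the sh-SIRT1 values. The 95% intervals of the differences were -0.11 to 0.41 for Pbx2, -0.10 to 0.25 for Pbx3 and -0.29 to 0.03 for Pknox1. The coding Pbx2 probe had a difference of 0.28 ± 0.12 (adjusted p = 0.124 in limma), which was called with the replicate number as a block (0.33, adjusted p = 0.0395) and without sh-Control RA array 2 (0.40, adjusted p = 0.0301). Without array 2 Pknox1 was also called, at -0.20 (adjusted p = 0.0499). With array weights both Pbx2 probes (0.18 and 0.31) and Pknox1 (-0.18) were called.

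**Figure D1:**
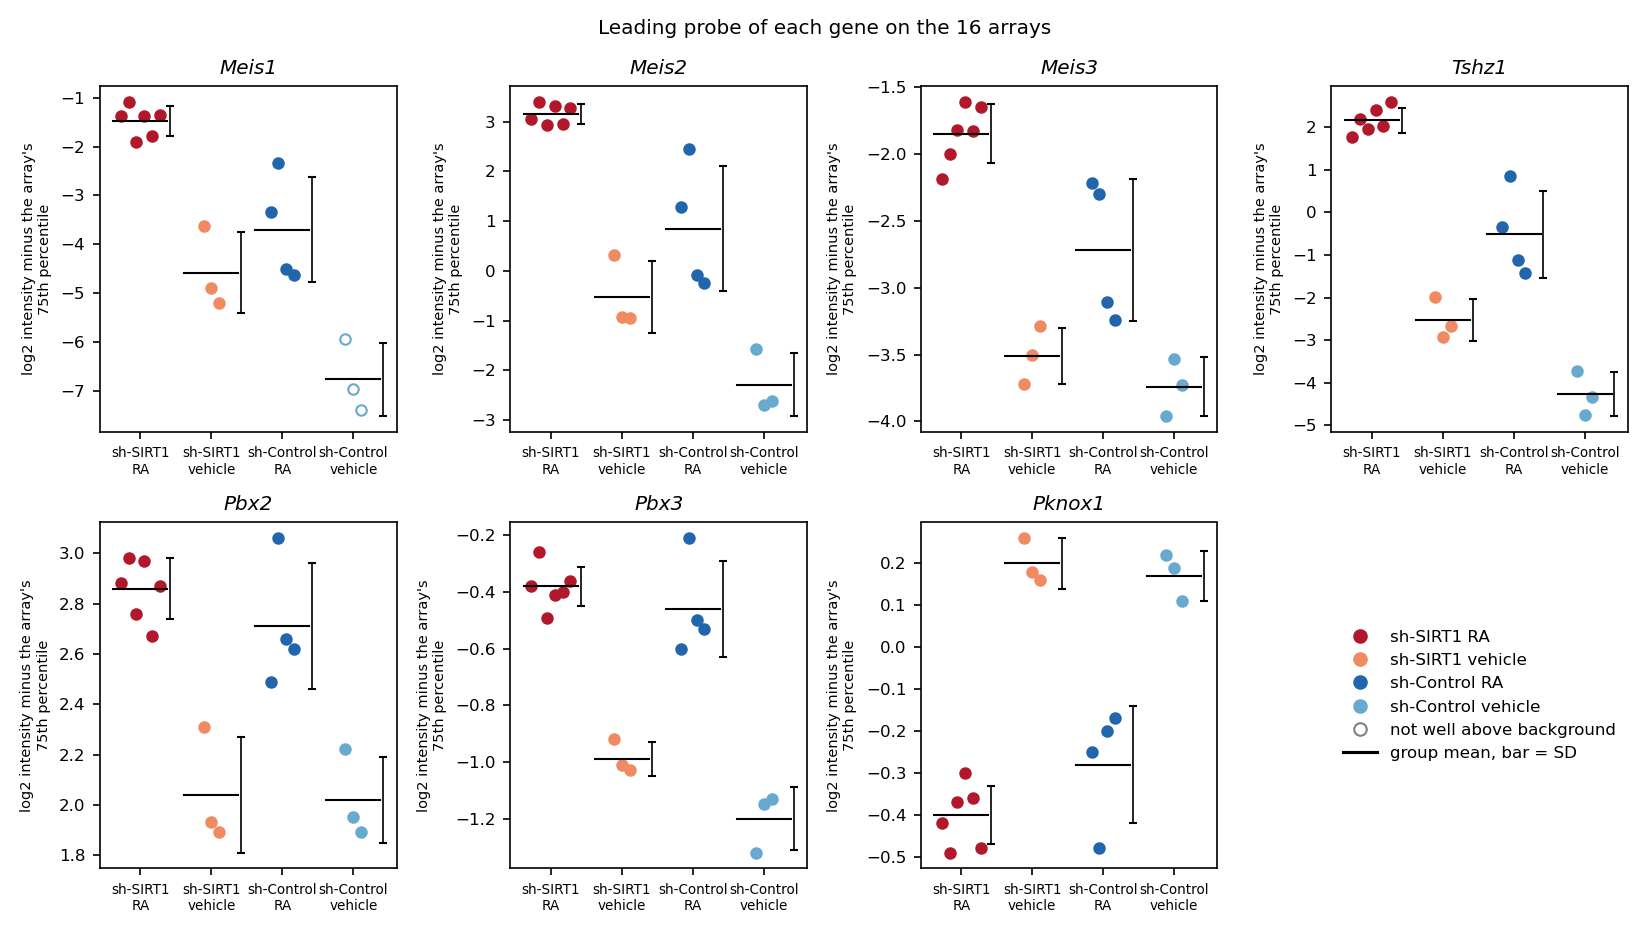
Each point is the leading probe of a gene on 1 array, as log2 intensity minus the array's 75th percentile, in sh-SIRT1 RA (6 arrays), sh-SIRT1 vehicle (3), sh-Control RA (4) and sh-Control vehicle (3). Lines are group means, bars are SD, and open points were not well above background. Meis1, Meis2 and Tshz1 step down from sh-SIRT1 RA in every other group, while Pbx2, Pbx3 and Pknox1 separate RA from vehicle with the hairpins side by side.

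With sh-Control RA array 1 alone in its group, which limma then assumes to vary like the other groups, the hairpin difference under RA stayed called for all 3 Meis2 probes (1.88 to 2.67), both Tshz1 probes (2.51 and 2.58) and the coding Meis1 probe (1.71, adjusted p = 0.016). The leading Meis1 probe then had 1.86 with an adjusted p of 0.058. Within the slides that held both groups, the leading probes differed by 3.13, 1.70 and 1.97 for Meis1 (slides 1, 2 and 4), by 3.40, 1.85 and 1.89 for Meis2 and by 3.52, 2.32 and 2.54 for Tshz1. For Meis3 these values were 1.5, 0.94 and 0.31. All 12 of these within-slide differences were higher in sh-SIRT1, which follows from the lack of overlap between the groups and adds no separate evidence. With sh-Control RA arrays 3 and 4 averaged as 1 sample, the same 8 probes were called.

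Markers of other cell types were compared as the sum of their levels on the linear scale, in multiples of the 75th percentile. The 8 pluripotency markers summed to 581 to 837 in sh-SIRT1 RA against 673 to 1030 in sh-Control RA. Of these 4 were called lower in sh-SIRT1, Tdgf1 (-1.06 ± 0.16), Sox2 (-0.95 ± 0.16), Nanog (-0.76 ± 0.13) and Zfp42 (-0.47 ± 0.14), and the other 4 were not called. The 6 neuroectoderm markers summed to 3.44 to 5.18 in sh-SIRT1 RA against 1.62 to 2.97 in sh-Control RA, with 5 and 4 of the 6 well above background on all arrays of the group. Of 5 tested, 3 were called higher in sh-SIRT1, Sox1 (1.59 ± 0.31), Zic1 (1.52 ± 0.51) and Nes (1.25 ± 0.18). Pax6 (0.91 ± 0.73) and Hes5 (-0.86 ± 0.3) were not called. The 5 trophectoderm markers, Cdx2 among them, summed to 3.52 to 8.57 against 1.72 to 5.03, with 4 of 5 well above background on all arrays of either group. Of 4 tested, 2 were called higher in sh-SIRT1. The 8 primitive endoderm markers summed to 6.59 to 12.7 against 4.11 to 38.6, where array 1 of sh-Control RA held 38.6. The 6 fibroblast markers summed to 3.87 to 9.57 against 3.17 to 14.0, and the 6 mesoderm markers to 0.453 to 0.613 against 0.543 to 0.646, with Mixl1 and Foxf1 at background throughout. Lum was at background on all sh-SIRT1 RA arrays. Within sh-Control RA, arrays 3 and 4, lowest in Meis1, Meis2, Meis3 and Tshz1, also had the lowest trophectoderm sums (1.81 and 1.72) and fibroblast sums (3.17 each). The same held for the neuroectoderm sums (1.66 and 1.62) and the primitive endoderm sums (4.11 and 4.15). In the mesoderm and pluripotency sums array 2 was the lowest of that group (0.543 and 673). The part of these cell types in the differences of the 7 genes was not tested.

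In vehicle, the leading probes of Meis1 and Tshz1 were higher in sh-SIRT1 than in sh-Control cells, and the other 5 genes did not pass the test on their leading probes. That is 2 of 12 probes called higher and 10 not called, against 4.36% of all probes called higher and 4.05% lower. The leading Meis1 probe read -3.63, -4.89 and -5.21 in sh-SIRT1 vehicle and -5.94, -6.97 and -7.39 in sh-Control vehicle, where all 3 arrays were at background. The groups did not overlap, and in both lines array 1 was the highest. The measured difference was 2.19 ± 0.55 (adjusted p = 0.0259 in limma). Since sh-Control was at background, a lower bound estimated from the group means was 1.88-fold, given without an interval. The coding Meis1 probe, well above background on 2 of 3 sh-SIRT1 and on no sh-Control array, had 0.79 ± 0.39 and was not called.

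Meis2 on its leading probe read 0.31, -0.93 and -0.95 in sh-SIRT1 vehicle against -1.57, -2.70 and -2.61 in sh-Control vehicle. Array 1 was the highest of its line here too, and the groups did not overlap. The difference of 1.77 ± 0.57 missed the threshold (adjusted p = 0.0707 in limma), as did 1.68 ± 0.68 and 1.33 ± 0.43 on the other probes. With the replicate number as a block within treatment the leading probe was called (adjusted p = 0.0362), in a fit that called 4708 of all probes instead of 2218. It was also called without sh-Control vehicle array 1 (2.13, adjusted p = 0.0458), and all 3 probes were with array weights (1.71, 1.67 and 1.06).

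The first Tshz1 probe read -1.98, -2.93 and -2.67 in sh-SIRT1 vehicle against -3.71, -4.75 and -4.33 in sh-Control vehicle, a difference of 1.74 ± 0.47 (adjusted p = 0.0344 in limma). The second probe read -3.90, -5.54 and -5.25 against -5.34, -4.53 and -4.33, a difference of -0.16 ± 0.46 (adjusted p = 0.871). With array weights in limma this became -0.88 and was called (adjusted p = 0.00346), opposite in direction to the first probe. The first probe separated the lines fully, whereas on the second the lines overlapped and its sign was opposite. On the second probe sh-SIRT1 vehicle array 2 and sh-Control vehicle array 1 were not well above background, while the first probe was well above background on all 16 arrays.

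Both vehicle calls depended on single arrays and on the processing. The Meis1 call was lost without sh-SIRT1 vehicle array 1 (1.72, adjusted p = 0.109) or 2 (2.35, adjusted p = 0.0529) and without sh-Control vehicle array 2 (2.09, adjusted p = 0.0898) or 3 (1.88, adjusted p = 0.114). The Tshz1 call was lost without sh-SIRT1 vehicle array 1 (1.46), 2 (1.94) or 3 (1.81) and without sh-Control vehicle array 2 (1.49) or 3 (1.71), with adjusted p-values from 0.0545 to 0.136. With the normexp background correction, whose offset of 50 shrinks differences of dim probes, the differences were 0.29 for Meis1 and 0.84 for Tshz1, neither called. Both calls were lost with the slide as a fixed block (2.07 and 1.66, limma adjusted p = 0.0842 and 0.0994). Averaging the probes of a gene also lost both (1.49 and 0.79, adjusted p = 0.063 and 0.302). Fitting only the vehicle groups lost Meis1 (adjusted p = 0.0655), and leaving out the filter lost Tshz1 (adjusted p = 0.0598). Within slides 1 and 3, which each held 1 vehicle array of both lines, Meis1 differed by 1.05 and 1.76 and Tshz1 by 0.78 and 2.08. The 6 fibroblast markers summed to 0.889 to 1.5 in sh-SIRT1 vehicle against 5.75 to 6.00 in sh-Control vehicle, and the 8 primitive endoderm markers to 0.837 to 0.860 against 1.23 to 1.26. Postn, Dcn and Lum were at background on the vehicle arrays of both lines, and Col1a1, Col1a2 and Thy1 were well above it on all of them. Of the 4 fibroblast markers tested only Thy1 was called (-2.48 ± 0.56), while Col1a1 (-0.62 ± 0.58) and Col1a2 (-0.69 ± 0.70) were not. Among the 8 primitive endoderm markers 0 were called. The part of these levels in the hairpin differences was not tested.

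Meis3 read -3.72, -3.50 and -3.29 in sh-SIRT1 vehicle and -3.96, -3.53 and -3.73 in sh-Control vehicle. Pbx2 read 2.31, 1.93 and 1.89 against 2.22, 1.95 and 1.89 on its leading probe, and Pknox1 0.26, 0.18 and 0.16 against 0.22, 0.19 and 0.11. For these 3 genes the lines overlapped. Pbx3 read -0.92, -1.01 and -1.03 against -1.32, -1.15 and -1.13, all sh-SIRT1 arrays above all sh-Control arrays. Its difference of 0.21 ± 0.10 was not called (adjusted p = 0.233 in limma), but it was with array weights (0.13, adjusted p = 0.0242). Leading probes without overlap between the lines were 4 of 7, against 35.2% of all probes.

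**Figure D2:**
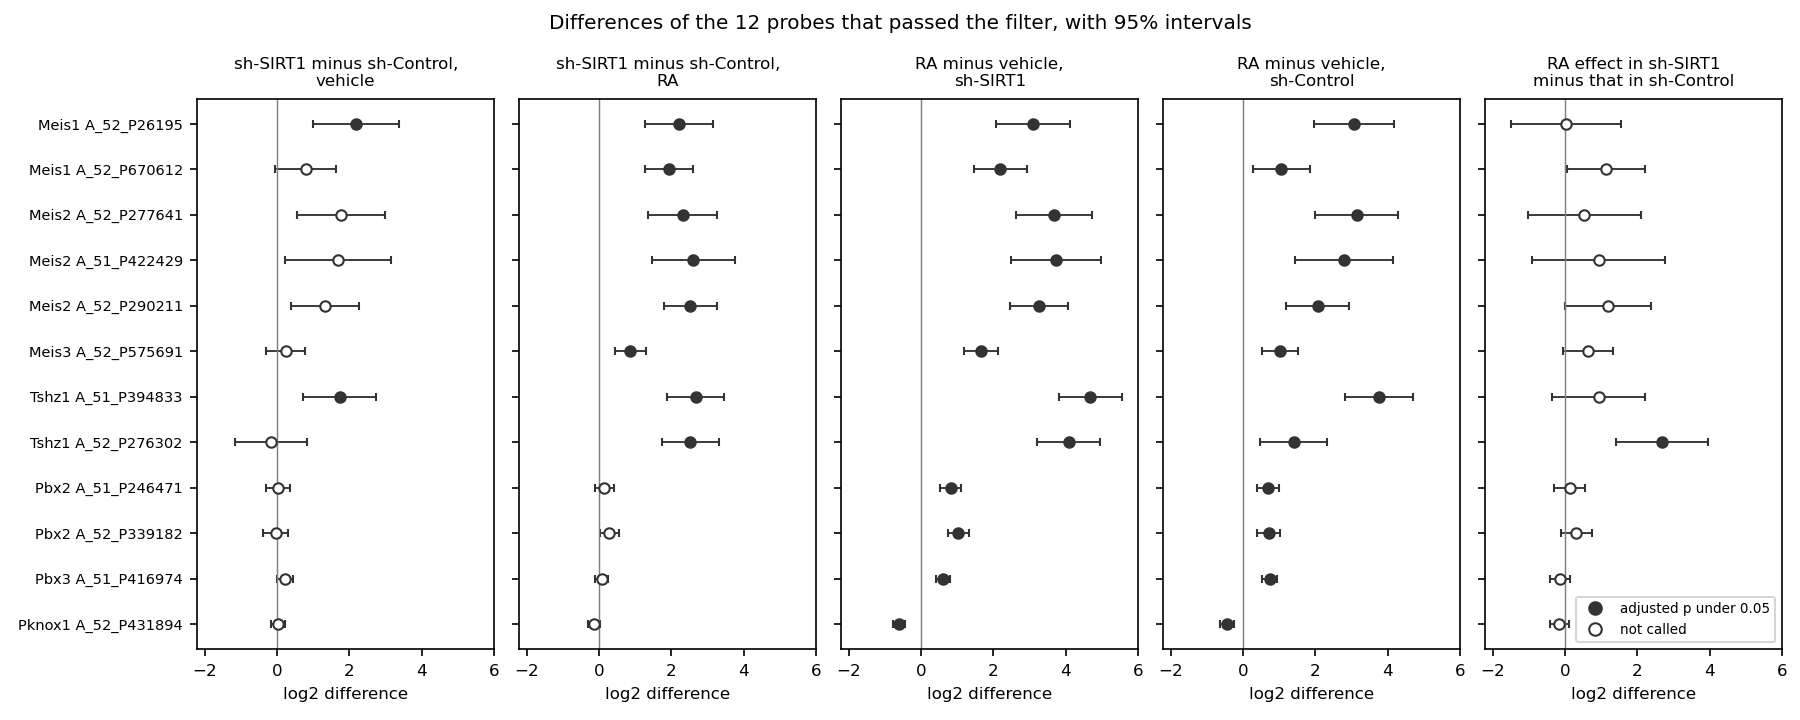
Points are log2 differences of the 12 probes that passed the filter in the 5 comparisons, and bars are 95% intervals from limma. Filled points had an adjusted p under 0.05. In the panel of sh-SIRT1 minus sh-Control under RA the 8 probes of Meis1, Meis2, Meis3 and Tshz1 are filled, and in the last panel only the second Tshz1 probe is. Meis1 was at background in sh-Control vehicle, so its points in the panels that use this group are not exact sizes.

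RA itself moved all 7 genes in both lines: 6 rose and Pknox1 fell. All 12 probes were called in sh-SIRT1 cells, 11 higher and 1 lower, against 22.1% of all probes called higher and 36.0% lower. The same held in sh-Control cells, against 19.1% higher and 26.4% lower. The coding Meis1 probe and the second Tshz1 probe passed the filter only through RA groups, where they were higher. The median of the leading probes was 1.66 in sh-SIRT1 and 1.02 in sh-Control, where the medians over all probes were -0.15 and -0.13. The RA comparisons share their RA and vehicle arrays with the hairpin comparisons above, so they are no separate evidence.

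In sh-SIRT1 cells Tshz1 had the largest RA difference of the leading probes. There the first probe averaged 2.16 ± 0.30 under RA and -2.52 ± 0.49 in vehicle (SD, n = 6 and 3), a difference of 4.68 ± 0.41 (adjusted p = 4.93e-07 in limma), or 25.7-fold. In sh-Control cells it averaged -0.51 ± 1.02 under RA and -4.26 ± 0.52 in vehicle (SD, n = 4 and 3), a difference of 3.75 ± 0.44, or 13.5-fold. The second probe had 4.08 ± 0.40 in sh-SIRT1 and 1.40 ± 0.43 in sh-Control (adjusted p = 0.0172 in limma), and the sh-Control call was lost without sh-Control vehicle array 1 (1.10, adjusted p = 0.089) or with sh-Control RA array 1 alone (1.34, adjusted p = 0.0743). On the first probe, within sh-Control RA, array 2 was highest at 0.86 and array 4 lowest at -1.43. Meis2 had 3.68 ± 0.49 (12.9-fold) in sh-SIRT1 and 3.14 ± 0.53 (8.83-fold) in sh-Control on its leading probe.

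Meis1 rose by 3.1 ± 0.48 (8.57-fold) in sh-SIRT1 cells on its leading probe. In sh-Control cells the measured difference was 3.07 ± 0.52. With the vehicle arrays at background, a lower bound estimated from the group means was 3.45-fold, without an interval and not a measured fold. The normexp background correction with its offset of 50 gave a difference of 1.04 there. On the coding probe the differences were 2.19 ± 0.34 in sh-SIRT1 and 1.05 ± 0.37 in sh-Control (adjusted p = 0.0306 in limma; at least 1.31-fold). In sh-Control cells RA array 4 at -6.08 lay among the vehicle values of -5.80, -6.33 and -6.30 on that probe, none of these 4 values being well above background. This call was lost without sh-Control vehicle array 2 (0.96, adjusted p = 0.0904) or 3 (0.97, adjusted p = 0.0891) and without sh-Control RA array 1 (0.98, adjusted p = 0.0623) or 2 (0.74, adjusted p = 0.0838).

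Meis3 rose by 1.66 ± 0.22 (3.15-fold) in sh-SIRT1 and 1.02 ± 0.23 (2.03-fold) in sh-Control cells. The Pbx genes moved less. Pbx2 rose by 0.82 ± 0.13 (1.76-fold) in sh-SIRT1 and by 0.69 ± 0.14 (1.61-fold) in sh-Control on the leading probe, and by 1.03 ± 0.14 and 0.71 ± 0.15 on the coding probe. Pbx3 rose by 0.60 ± 0.09 (1.52-fold) in sh-SIRT1 and 0.74 ± 0.10 (1.67-fold) in sh-Control. Pknox1 fell by 0.60 on the log2 scale in sh-SIRT1 (SE 0.08, adjusted p = 2.14e-05 in limma) and by 0.45 in sh-Control (SE 0.09, adjusted p = 0.000882). On the leading probes the RA and vehicle arrays of a line did not overlap for any of the 7 genes, against 57.6% of all probes without overlap in sh-SIRT1 and 46.7% in sh-Control. With sh-Control RA array 1 alone, the Pbx2 differences in sh-Control were 0.47 and 0.51 and missed the threshold (adjusted p = 0.0722 and 0.0674). The other leading probes stayed called, at 3.43 for Meis1, 3.57 for Meis2, 1.52 for Meis3, 3.91 for Tshz1, 0.60 for Pbx3 and -0.42 for Pknox1.

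RA-treated cells also differed from vehicle cells in markers of other cell types. In sh-SIRT1 cells the primitive endoderm sum was 6.59 to 12.7 under RA against 0.837 to 0.860 in vehicle, the trophectoderm sum 3.52 to 8.57 against 0.121 to 0.384, and the fibroblast sum 3.87 to 9.57 against 0.889 to 1.5. In sh-Control cells these sums were 4.11 to 38.6 against 1.23 to 1.26, 1.72 to 5.03 against 0.234 to 0.613, and 3.17 to 14.0 against 5.75 to 6.00. The pluripotency sum was 581 to 837 under RA against 779 to 897 in vehicle in sh-SIRT1 cells, and 673 to 1030 against 897 to 1060 in sh-Control cells. Of the 8 pluripotency markers, RA called 6 lower in sh-SIRT1 and 4 lower in sh-Control cells. Nanog was called higher in both lines, by 0.72 ± 0.14 in sh-SIRT1 and 1.3 ± 0.15 in sh-Control. The part of these cell types in the RA differences of the 7 genes was not tested.

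The test of whether RA acted more strongly in sh-SIRT1 than in sh-Control cells called 1 of the 12 probes, the second Tshz1 probe, against 1.96% of all probes called higher and 2.59% lower. For it the RA difference was larger in sh-SIRT1 by 2.68 ± 0.59 (adjusted p = 0.0242 in limma). This call was lost with the replicate number as a block (2.66, adjusted p = 0.0553), with sh-Control RA array 1 as the only one of its group (2.75, adjusted p = 0.0663) and without sh-Control RA array 3 (2.52, adjusted p = 0.0543). It was also lost without sh-SIRT1 vehicle array 2 (2.36) or 3 (2.51) and without sh-Control vehicle array 2 (2.58) or 3 (2.48), with adjusted p-values of 0.0664 to 0.0742. The normexp correction (1.78, adjusted p = 0.0935 in limma) and the slide as a fixed block (2.9, adjusted p = 0.0684) lost it too. So did averaging sh-Control RA arrays 3 and 4 (2.49, adjusted p = 0.0511). The third Meis2 probe, at 1.19 ± 0.55, was called without sh-Control RA array 2 (1.65, adjusted p = 0.0242). The first Tshz1 probe gave 0.93 ± 0.60 (95% interval -0.35 to 2.21). No size is given for Meis1, because both its probes were at background on all sh-Control vehicle arrays and its RA effect in sh-Control has only a lower bound. For the leading probes of the others the values were 0.54 for Meis2 (-1.01 to 2.09), 0.63 for Meis3 (-0.05 to 1.32), 0.13 for Pbx2 (-0.29 to 0.55), -0.14 for Pbx3 (-0.42 to 0.14) and -0.16 for Pknox1 (-0.41 to 0.10). With sh-Control RA array 1 as the only one of its group the values were 0.11 for Meis2, 0.14 for Meis3 and 0.77 for the first Tshz1 probe. With array weights in limma, which give noisier arrays less weight, all 3 Meis2 probes were called (1.49, 2.16 and 2.18, adjusted p = 0.00105, 0.00165 and 4.71e-05). So were Meis3 (1.16), the first Tshz1 probe (1.66), the coding Pbx2 probe (0.47) and Pknox1 (-0.20), in a fit that called 13627 of all probes instead of 1201.

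Over the 16 arrays, some of them at background for Meis1 and Tshz1, Pearson's r was 0.96 for the Meis1 probes, 0.95 to 0.99 for the 3 pairs of Meis2 probes, 0.99 for the Pbx2 probes and 0.94 for the Tshz1 probes, as a description of arrays that share their groups. Over the 10 RA arrays alone it was 1.00 for Tshz1, 0.98 for Meis1, 0.93 for Pbx2 and 0.91 to 0.98 for the pairs of Meis2 probes. The second Meis2 probe stood apart on sh-Control RA array 3, at -1.50 against -0.09 on the leading probe. In vehicle the Tshz1 probes did not keep one distance: on sh-Control arrays 2 and 3, where both were well above background, the first read -4.75 and -4.33 and the second -4.53 and -4.33, while on sh-SIRT1 array 3 the first read -2.67 and the second -5.25. All probes of Meis1 and of Meis2 had the same sign in all 5 comparisons, while the Tshz1 probes and the Pbx2 probes differed in sign in vehicle between the lines. For Pbx2 the values there were 0.02 and -0.04. The 2 Pbx3 clone probes (A_52_P406028 and A_52_P140177) ranged from -8.24 to -7.43 over all arrays and carry no measure of Pbx3.

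**Figure D3:**
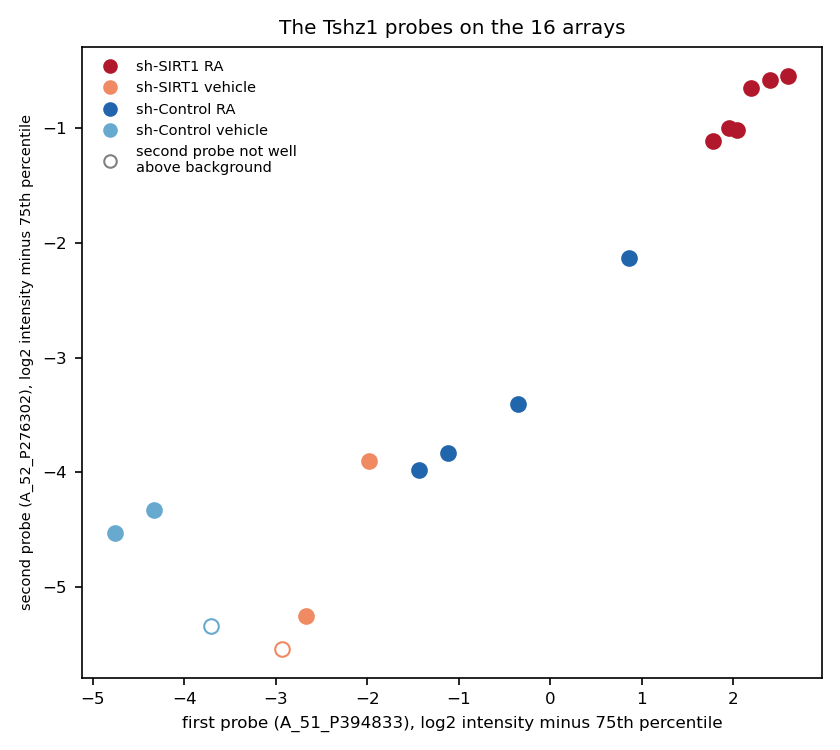
Each point is 1 array, with the first Tshz1 probe on the x axis and the second on the y axis, both as log2 intensity minus the array's 75th percentile. Open points mark arrays where the second probe was not well above background. The 10 RA arrays lie close to a line, while the 3 sh-SIRT1 vehicle arrays lie right of the 3 sh-Control vehicle arrays on the first probe and overlap them on the second.

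The genes with the most similar profiles over the 16 arrays were found by the root mean square difference of profiles centred on their own mean. Meis1 and Meis2 were nearest to each other (0.266 log2 units, against an SD over arrays of 2.11 for Meis1 and 2.22 for Meis2). Next to them came Gas1, a growth arrest gene that encodes a co-receptor for hedgehog ligands, at 0.443 from Meis1 and 0.349 from Meis2. Gas1 was also nearest to Tshz1 (0.428), followed by Meis2 (0.483). Its means were -1.04 in sh-SIRT1 RA, -5.11 in sh-SIRT1 vehicle, -3.26 in sh-Control RA and -6.89 in sh-Control vehicle, with the last at background on all 3 arrays and sh-SIRT1 vehicle above it on 1 of 3. The nearest to Meis3 were Plin2, a lipid droplet protein (0.172), and Cited2, a transcriptional coactivator that also bore the name Mrg1 (0.192).

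Of 14 other TALE and teashirt genes on the array 12 were tested. Under RA 2 were higher in sh-SIRT1 than in sh-Control cells, among them Tgif2, a TALE repressor, by 0.28 ± 0.08 (adjusted p = 0.0208 in limma), and the others were not called. In vehicle 2 were higher, Irx2 by 1.52 ± 0.21 and Mkx by 0.79 ± 0.18. RA called 6 higher and 2 lower in sh-SIRT1 cells, among them Irx1 (2.40 ± 0.18) and Irx5 (at least 1.88-fold), and 7 higher and 1 lower in sh-Control cells, among them Irx2 (2.95 ± 0.19) and Irx1 (2.16 ± 0.19). For Irx2, an Iroquois homeobox gene, the RA effect in sh-SIRT1 minus that in sh-Control was -1.58 ± 0.27 (adjusted p = 0.00884 in limma). Tgif2 fell under RA in both lines, by 0.44 in sh-SIRT1 and 0.66 in sh-Control. Beside these counts, 8.36% of all probes were called higher between the lines under RA and 4.36% in vehicle. RA called 22.1% of all probes higher and 36.0% lower in sh-SIRT1 cells, and 19.1% higher and 26.4% lower in sh-Control cells.

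Hox genes, the partners of Pbx and Meis proteins, were read from paralog groups 1 to 4, which lie at the 3' ends of the clusters, and 5 to 13. Under RA 6 of 11 tested genes of groups 1 to 4 and 14 of 19 of groups 5 to 13 were higher in sh-SIRT1 than in sh-Control, and the others were not called. The largest were Hoxd4 (2.35 ± 0.31) in the first set and Hoxc9 (3.45 ± 0.64) in the second. In vehicle 0 of the 11 and 3 of the 19 were called higher. Between the lines 8.36% of all probes were called higher under RA and 4.36% in vehicle. The Hox and partner calls that use sh-Control RA were not checked with its array 1 alone. RA called 9 of 11 and 18 of 19 higher in sh-SIRT1 cells and 1 of the 19 lower, against 22.1% of all probes higher and 36.0% lower. In sh-Control cells RA called 8 of 11 and 15 of 19 higher, against 19.1% of all probes. Among the other partners listed, Cdx2, which binds Hox gene regulatory regions, was higher in sh-SIRT1 RA than in sh-Control RA by 1.40 ± 0.47 (adjusted p = 0.0476), and Ep300, a histone acetyltransferase, gave -0.35 ± 0.11 in the same comparison (adjusted p = 0.0332).

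**Figure D4:**
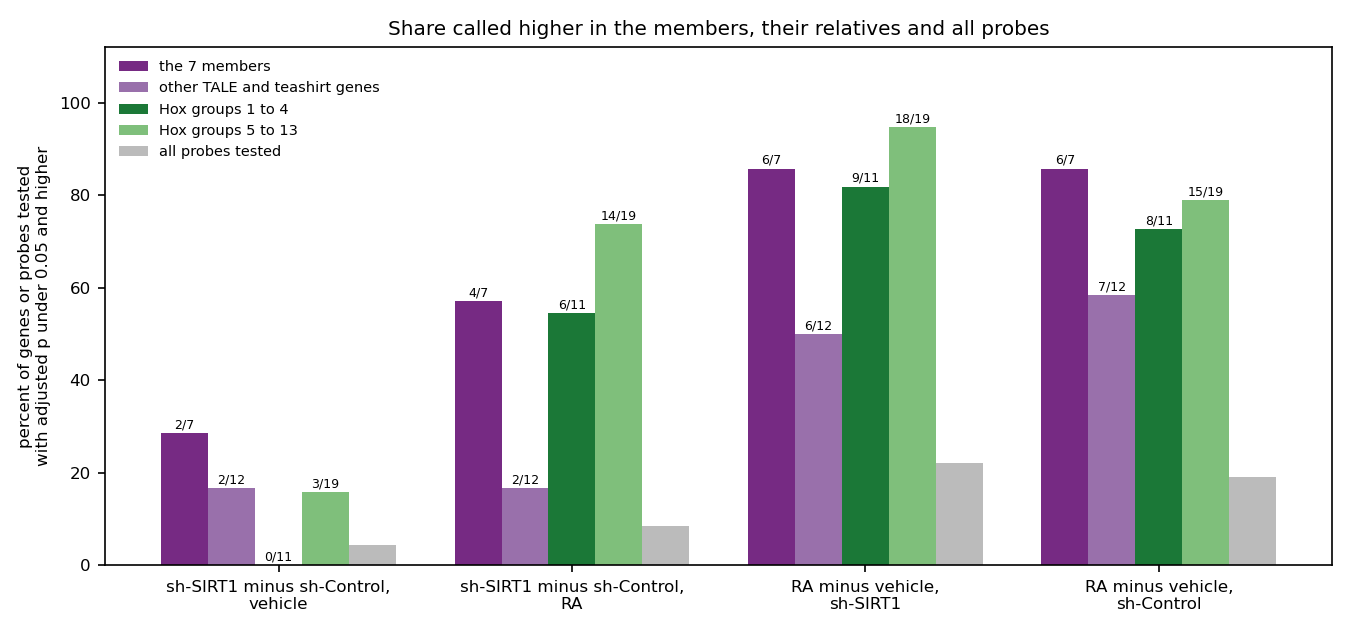
Bars give the percent of tested genes called higher (limma adjusted p under 0.05) for the 7 members on their leading probes, other TALE and teashirt genes, both sets of Hox genes and all 26375 probes, in 4 comparisons, with called over tested above the bars. For sh-SIRT1 against sh-Control under RA the counts are 4 of 7, 2 of 12, 6 of 11 and 14 of 19, beside 8.36% of all probes.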

How the data were processed

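Total RNA was labelled with Cy3 and hybridised to 16 Agilent Whole Mouse Genome 1-colour arrays. The authors quantified spots in Feature Extraction 9.5, per the submitters' processing notes (9.5.3.1 per the file headers). The deposited intensity values were detrended spatially and multiplicatively with no other background correction, per the file headers, and the deposited series matrix held equal values on all 45018 spots. Probe positions in the headers are on mm7.

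Each array's log2 intensity was set relative to its 75th percentile (684.1 to 1155 over the arrays). Spots marked as outliers were left out, spots of a probe averaged, and 26375 probes kept that every array of some group showed well above background (60.3 to 68.6% of spots per array were). limma 3.58.1 in R 4.3.3 fitted a mean per group over all 16 arrays, with 12 residual degrees of freedom, two-sided tests and Benjamini-Hochberg adjustment at 0.05. A lower bound of a fold ("at least") was taken against the lowest signal well above background where no array of a group measured a probe. For simulated data of the vehicle comparison with 26375 probes, 86% of changes of 2 log2 units were called and 55% of changes of 1 unit.

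The members, gene lists and tests were chosen with earlier results of these data known. All probes of the 7 members were named. From the lists, at most 3 called genes per comparison were named by size of difference (1 that this rule named is not reported here), and for 4 members the 2 genes with the nearest profiles. Mrg1 is an older name of both Meis2 and Cited2; the probes so named were read as Meis2 by accession (2 probes) or by position beside these on chromosome 2. Same-numbered sh-SIRT1 and sh-Control arrays deviated together within treatments (correlation over probes 0.341 to 0.539 in all 7 pairs), so 1 alternative fit took the replicate number as pairing the lines. The main fit, which gave the SEs and p-values above unless an alternative is named, used no pairing. sh-SIRT1 RA arrays 5 and 6 had no same-numbered sh-Control array. Differently numbered RA arrays correlated as highly in part (0.504 for sh-SIRT1 array 5 with sh-Control array 3), and sh-SIRT1 arrays 1 and 2 and arrays 3 to 6 formed separate sets there. Across treatments this correlation was -0.203 to 0.206, so RA and vehicle arrays were not paired. The precision of each value is limited by the number of arrays.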

Additional observations from a re-analysis of the deposited data

Results flagged for a closer look

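The second Tshz1 probe (A_52_P276302) had an RA difference that was larger in sh-SIRT1 than in sh-Control cells by 2.68 log2 units, by limma's test of the difference itself (adjusted p = 0.0242). In both vehicle groups this probe was well above background on 2 of 3 arrays. The first Tshz1 probe, measured on all 16 arrays, gave 0.93 (adjusted p = 0.40). Over the alternatives the value of the second probe ranged from 1.78 to 3.93 and its adjusted p from 6e-07 to 0.0935. Among 28 groups of member values with 4 or 6 arrays, 0 had a sample far from the others by Dixon's test, which chance alone gives in about 5% of groups.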

How the results depend on the processing

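Of 1231 member values recomputed under the alternatives, 1161 kept their side of the threshold, 47 lost a call, 23 gained one and 0 changed sign where called in either fit. All 12 RA calls in sh-SIRT1 cells were kept in every alternative run, and the vehicle calls of Meis1 and Tshz1 were lost in several. Counts of all probes called are given in the order hairpin in vehicle, hairpin under RA, RA in sh-SIRT1, RA in sh-Control, difference of RA effects, and were 2218, 5514, 15319, 12016 and 1201. With the normexp correction and its offset of 50 they were 309, 1368, 9444, 5808 and 21. With array weights both hairpin comparisons gave 12937 and 15555, RA in sh-Control 18456 and the difference 13627. The replicate block within treatment gave 4708 for the hairpin in vehicle and 2608 for the difference, and the slide as a fixed block 1337 and 128. With 1 probe per gene the hairpin under RA gave 3625 and the difference 658, with probes averaged 3557 and 587, and without sh-Control RA arrays 2, 3 and 4 2782 and 313. The difference gave 499 without the filter and 551 with sh-Control RA arrays 3 and 4 averaged, an alternative chosen after seeing the data. Leaving out 1 array gave 1022 to 2802, 3726 to 6345, 13333 to 15181, 9951 to 12078 and 338 to 2927. The replicate block changed these member calls: Meis2 in vehicle and the coding Pbx2 probe under RA were gained, Meis3 under RA (0.81) and the second Tshz1 probe in the difference of RA effects (2.66, adjusted p = 0.0553 in limma) were lost. The cause of these changes was not tested. Signals at background limit Meis1 and the second Tshz1 probe in vehicle.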
